A study of Mus musculus with 6 samples.

Results

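The genes examined here encode Polycomb proteins, and they were chosen by name: every probe set whose platform gene symbol was Ezh1, Ezh2, Eed, Suz12, Jarid2, Bmi1, Cbx7, Cbx8, Rnf2 or Ring1. This gave 29 probe sets for the 10 genes, of 45101 probe sets on the array, and all 10 genes were measured. Their RNA was compared between 2 genotypes of mouse leukaemic progenitors, each with 3 Affymetrix arrays. None of the 29 probe sets passed the test for a difference between the genotypes, and the log2 fold changes lay between -0.40 and 0.41.

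Both groups were bone marrow cells carrying MLL-AF9, a fusion oncogene of acute myeloid leukaemia, linked by an IRES to YFP, a fluorescent marker. Every sample carried the ROSAwt/CreERT2 allele. The EF1α locus was EF1αwt/wt in the WT group (n = 3) and EF1αwt/lsl-N1-IC in the N1-IC group (n = 3). N1-IC is the intracellular, active part of the receptor Notch1, placed in the EF1α locus, and CreERT2 is a recombinase that tamoxifen activates. Wild-type recipients aged 12 weeks were lethally irradiated and received 50000 infected cKit+ cells together with 250000 wild-type support marrow cells. From week 4 after the transplant both groups were given tamoxifen, 2 injections of 0.2 mg per g of body weight, and the marrow was taken 6 days after the last one. The cells were sorted as LGMP, that is lineage negative, cKit+, Sca1-, YFP+, CD34+ and FcgRII/III+. The labels give male for each WT sample and female for each N1-IC sample, so genotype and sex cannot be told apart. How many mice a sample came from is not in the labels. The p-values therefore measure only how far these samples spread, which may be technical, and fewer cells of a type cannot be told apart from less RNA per cell.

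Polycomb proteins keep genes silent through chromatin. Polycomb repressive complex 2 (PRC2) methylates histone H3 at a lysine of its tail through EZH2 or EZH1, which need the partners EED and SUZ12, and JARID2 helps to bring the complex to its sites. Polycomb repressive complex 1 (PRC1) holds a RING protein, RING1 or RNF2 (RING1B), that ubiquitinates histone H2A, a PCGF protein such as BMI1, and in its canonical form a CBX protein that reads the PRC2 mark. In MLL-AF9 leukaemia PRC2 and BMI1 are known to sustain the leukaemic cells, and CBX8 is known as a binding partner of the AF9 part of the fusion. In T cell leukaemia NOTCH1 is known to oppose PRC2 at target genes. None of this background was measured here.

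Array medians lay between 49.6 and 51.0 intensity units (5.63 to 5.67 on the log2 scale), and their lower quartiles between 3.86 and 3.92 log2 units. Sort markers lay above the median of every array, with Kit at 10.23 to 10.76 and Fcgr3 at 12.60 to 13.12 log2 units. Cd34 lay at 11.69, 11.52 and 11.33 in WT and at 11.04, 10.05 and 11.28 in N1-IC, so every N1-IC array was lower (-0.72 ± 0.33, SE, limma adjusted p of 0.644). Without N1-IC replicate 2 the Cd34 difference was -0.35. The mean level of Notch1 was 11.33 for WT as for N1-IC, and no source used here says whether its probe sets read the N1-IC transcript. For the Notch targets Nrarp and Hes1 the brightest probe sets were separate between the groups and higher in N1-IC (log2 fold changes of 2.83 ± 0.80 and 1.20 ± 0.38, SE), each with a limma adjusted p of 0.639. Without N1-IC replicate 3 the Hes1 value was 0.78, and a second Nrarp probe set overlapped between the groups with 1.94. Some arrays stood apart in markers of other cells. The 11 measured erythroid and megakaryocyte markers averaged 8.72 log2 units in WT replicate 2, while the other arrays ranged from 5.79 to 6.49. Erythroid genes such as Klf1 (10.04, elsewhere 5.46 to 6.25) and Ermap (10.97, elsewhere 5.02 to 6.23) were high there, though Hba-a1 (4.07) was not. Of the megakaryocyte genes Itga2b (6.48) and Gp9 (7.93) lay within the range of the other arrays. Pf4 lay at 9.09, near the 8.75 of WT replicate 1. The 11 late granulocyte markers averaged 7.47 in WT replicate 1 against 9.74 to 10.44 on the others. The average of the 10 mast cell, basophil and eosinophil markers was high on 3 arrays. It was 7.96 in WT replicate 2, 7.76 in N1-IC replicate 2, 7.56 in N1-IC replicate 3 and 6.26 to 6.56 elsewhere. Not every marker followed the average. Cpa3 was highest in WT replicate 1 (8.98), and Hdc lay at 10.14 in N1-IC replicate 1, above its 9.17 and 8.77 in N1-IC replicates 2 and 3. Xist, whose RNA coats the inactive X chromosome, lay at 10.70 in WT replicate 2 against 5.64 and 5.42 in the other WT arrays and 12.73 to 12.82 in N1-IC. The Y-linked gene Eif2s3y lay at 10.34 in WT replicate 2, near the 11.31 and 11.26 of the other WT arrays and far from the 2.94 to 3.46 of N1-IC. WT replicate 2 therefore held both a Y-linked signal, as its male label says, and Xist RNA. The Polycomb probe sets, the brightest probe set of each gene named by rule and the differences between alternative subunits were also computed without each array in turn.

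In the comparison of N1-IC with WT across 45037 non-control probe sets, limma called 4 at an adjusted p under 0.05, which is 0.00888%. Of the 29 Polycomb probe sets 0 were called, with adjusted p values of 0.639 to 0.985. At an unadjusted p under 0.05 there were 2 (6.90%), 1 higher and 1 lower, where 7.70% of all probe sets passed (3.57% higher and 4.13% lower), so the share of Polycomb probe sets lay near that of the array. The groups did not overlap for 6 of the 29 (20.7%), 4 higher and 2 lower in N1-IC, where 14.4% of all probe sets had groups that did not overlap, 7.40% higher and 7.02% lower. The mean was higher in N1-IC for 19 of 29, where 50.5% of all probe sets had a higher mean. The median log2 fold change was 0.089 over the Polycomb probe sets and 0.002 over all. Of the 4 separate and higher probe sets 3 were of Suz12, as were 6 of the 19 with a higher mean. Those of Suz12 read the same RNA. With each gene read by its brightest probe set, the groups were separate for 1 of 10 genes, against 14.8% of all genes. The mean was higher in N1-IC for 6 of the 10, against 52.6% of all genes. The median difference of the 10 was 0.046, against 0.012 over all genes, and 0 had an unadjusted p under 0.05. Intervals of 95% around the Polycomb fold changes had half-widths of 0.21 to 0.73 with a median of 0.37 on the log2 scale. These intervals are not adjusted for the number of probe sets tested. On every array 21 of the 29 lay above the array median and 7 lay below it on every array. Whether the low ones exceed background is unknown, since detection calls were not used here.

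**Figure D1:**
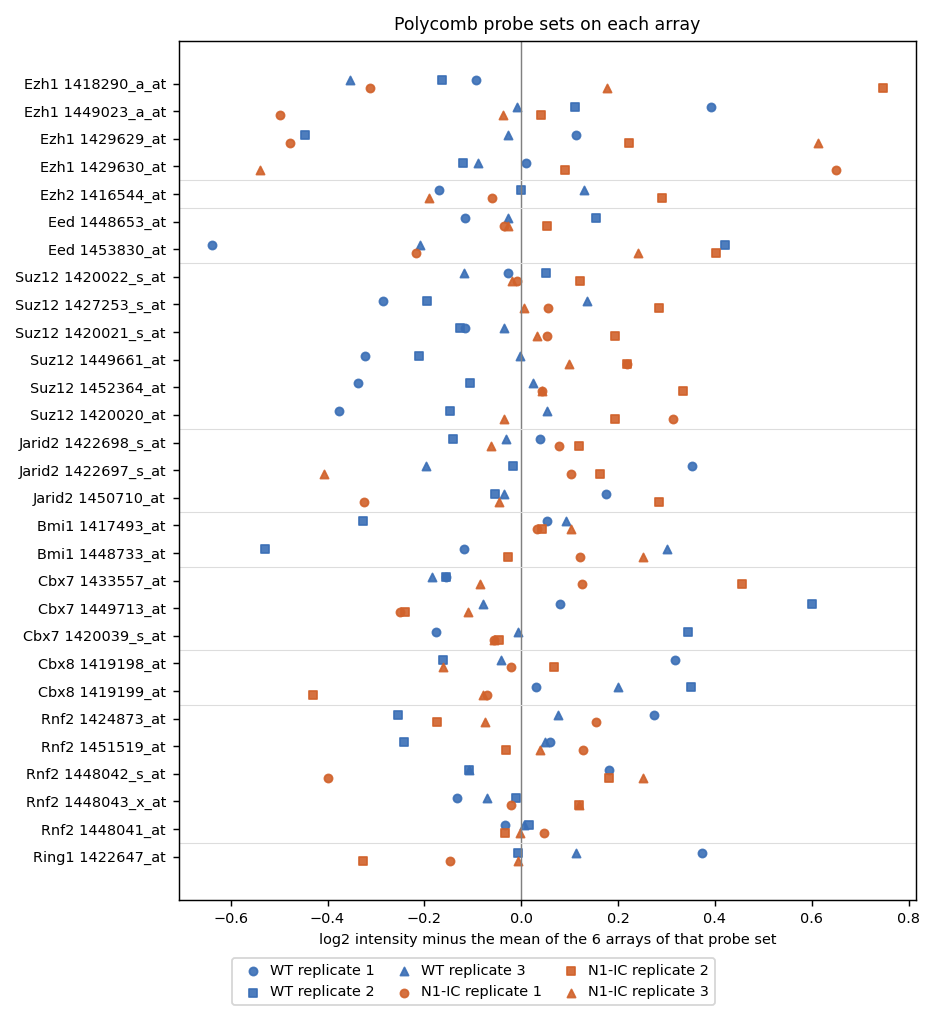
Log2 intensity of each of the 29 Polycomb probe sets on each array, as the distance from that probe set's mean over the 6 arrays (horizontal axis), with WT arrays in blue and N1-IC arrays in orange and a marker shape for each replicate. Points of the groups intermingle in most rows, and they do not overlap in 6 of the 29.

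Among the PRC2 genes Suz12, the zinc finger subunit that holds the complex together, was the member whose probe sets all leaned one way. All 6 of its probe sets had a higher mean in N1-IC, with log2 fold changes of 0.066 to 0.36, and in 3 of them every N1-IC array lay above every WT array. Probe sets of one gene measure the same RNA and are not independent. The probe set 1449661_at lay at 10.68, 10.79 and 11.00 on the WT arrays and at 11.22, 11.22 and 11.10 on the N1-IC arrays. WT replicate 3 came closest to the N1-IC range. Its log2 fold change was 0.36 ± 0.12 (SE), with a 95% interval of 0.071 to 0.64, an unadjusted p of 0.0219 and a limma adjusted p of 0.639. The probe set 1452364_at had 9.99, 10.22 and 10.35 in WT and 10.37, 10.66 and 10.37 in N1-IC, a difference of 0.28 ± 0.14 (SE) in which WT replicate 3 lay just below the nearest N1-IC arrays. The probe set 1420021_s_at had 11.73, 11.72 and 11.81 in WT and 11.90, 12.04 and 11.88 in N1-IC, a difference of 0.19 ± 0.094 (SE). The other 3 overlapped between the groups. Of these, 1420020_at differed by 0.31 ± 0.15, 1427253_s_at by 0.23 ± 0.15 and 1420022_s_at, the brightest, by 0.066 ± 0.098 on the log2 scale (SE). The adjusted p values of the 6 ran from 0.639 to 0.847, so the lean of Suz12 is not a called change. With any one array left out all 6 kept a higher mean in N1-IC, and for 1449661_at the difference then ran from 0.28 to 0.44.

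The Suz12 promoter is shown because this gene had the smallest p among the Polycomb genes. It is the stretch of 250 bases before the RefSeq start site, on the plus strand at chr11:79992856-79993105 of GRCm38.p6, and its capitals mark TTTCCCGC, a form of the site that E2F factors of the cell cycle recognise:
Suz12: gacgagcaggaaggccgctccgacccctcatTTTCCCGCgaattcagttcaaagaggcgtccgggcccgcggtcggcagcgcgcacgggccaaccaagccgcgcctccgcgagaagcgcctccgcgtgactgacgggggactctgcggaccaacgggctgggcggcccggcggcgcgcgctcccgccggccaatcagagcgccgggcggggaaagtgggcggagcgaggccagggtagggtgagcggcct
The letters were searched on both strands in RefSeq promoter windows that run from 250 bases before to 50 after a start site. Of 32851 such windows 1.07% hold TTTCCCGC, and among the 11 windows of the 10 Polycomb genes it was found in that of Suz12. The Suz12 window has 41 CpG dinucleotides, the highest count among the 11. Those windows hold 17 to 41 each with a median of 24.0, against a median of 7.00 over all windows, and 31.4% of all windows hold 17 or more. A match of letters is a description and not evidence of binding.

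Ezh2 encodes the main methyltransferase of dividing cells and had a single probe set, 1416544_at. It lay at 11.21, 11.38 and 11.51 in WT and at 11.32, 11.67 and 11.19 in N1-IC, so the highest and the lowest array both belonged to N1-IC. The difference was 0.026 ± 0.16 (SE), with an interval of -0.36 to 0.41 (a fold of 0.781 to 1.33) and an adjusted p of 0.966. A doubling or halving of Ezh2 RNA lay outside this interval, and a shift of up to 1.33-fold did not. The Ezh2 window holds TTTGGCGC, another form of the E2F site that occurs in 0.514% of all windows and in no other window of the 10 genes. The 30 bases around it, at chr6:47595009-47595038 of GRCm38.p6 on the minus strand, span the start site, with the match in capitals:
Ezh2: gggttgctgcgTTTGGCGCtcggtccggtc
Either form of the site is found in 1.56% of all windows. Because Ezh2 is known to follow cell division, 16 measured proliferation genes were set beside it. Their means were higher in N1-IC for 8 and lower for 8, 0 passed limma's test at an adjusted or an unadjusted p under 0.05, and the median difference was 0.005. Mcm4, Mcm5 and Mcm3, subunits of the replicative helicase, had 0.28, 0.30 and 0.21, and the mitotic kinase gene Plk1 had 0.33 (adjusted p of 0.670 to 0.688). Other probe sets went the other way, with 2 of 5 lower for Mcm3 and 1 of 3 for Mcm5, and the other Mcm4 probe set had only 0.057. Mki67, a marker of cycling cells, had -0.40, and Pcna and Mcm7 had -0.14 and -0.16.

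Ezh1 encodes the second methyltransferase, which is known to serve in resting cells, and its probe sets disagreed. The brightest, 1418290_a_at, lay at 9.40, 9.33 and 9.14 in WT and at 9.18, 10.24 and 9.67 in N1-IC. N1-IC replicates 2 and 3 were above all WT arrays and replicate 1 was among them, which gave 0.41 ± 0.27 (SE) and an adjusted p of 0.698, and 0.13 without N1-IC replicate 2. N1-IC replicates 2 and 3 are also the N1-IC arrays with the higher average of mast cell, basophil and eosinophil markers. WT replicate 2 had the highest average of these markers (7.96), and its Ezh1 value of 9.33 lay between those of the other WT arrays. The part of these markers in the Ezh1 value was not tested. The probe set 1449023_a_at lay at 7.99, 7.71 and 7.59 in WT and at 7.10, 7.64 and 7.56 in N1-IC, a difference of -0.33 ± 0.19 (SE, adjusted p of 0.671) with the lowest array in N1-IC replicate 1. The suffix of both marks probe sets that can read several transcripts of 1 gene, and no source used here says which. The other pair, 1429629_at and 1429630_at, lay below the array median on every array and differed by 0.24 ± 0.30 and 0.13 ± 0.29 (SE).

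Eed, whose protein binds the methylated histone and activates the enzyme, had the smallest difference of the PRC2 members when each was read by its brightest probe set. Its brightest probe set 1448653_at lay at 10.31, 10.58 and 10.40 in WT and at 10.39, 10.48 and 10.40 in N1-IC. All N1-IC arrays fell inside the WT range, with a difference of -0.008 ± 0.11 (SE), an interval of -0.27 to 0.25 and an adjusted p of 0.985. The sign of this value turned with further quantile normalization and with median centring. The other Eed probe set, 1453830_at, lay at 2.97 to 4.03 log2 units, around the lower quartile of the arrays, so its 0.28 ± 0.30 (SE) says little of expressed Eed.

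Jarid2, which encodes the accessory protein that targets PRC2 in stem and progenitor cells, gave 3 probe sets, all above the array median and all overlapping between the groups. The brightest, 1422698_s_at, lay at 12.06, 11.88 and 11.99 in WT and at 12.10, 12.14 and 11.96 in N1-IC, a difference of 0.089 ± 0.10 (SE). The probe sets 1422697_s_at and 1450710_at differed by -0.095 ± 0.21 and -0.060 ± 0.17 (SE), so signs were mixed and all were smaller than their errors. The adjusted p values ran from 0.801 to 0.927.

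Jarid2 and Bmi1 were the 2 genes of the 10 whose windows hold TGGGAA, the core of the site read by RBPJ, the DNA-binding partner of N1-IC. The letters were searched on both strands, do not contain and are not contained in either E2F form, and occur in 25.6% of all windows. Both stretches, of 60 bases each, are shown because N1-IC acts through RBPJ. The Jarid2 stretch is at chr13:44730702-44730761 and that of Bmi1 at chr2:18676768-18676827, both on the plus strand of GRCm38.p6. Capitals mark the core, which Bmi1 holds as its reverse complement:
Jarid2: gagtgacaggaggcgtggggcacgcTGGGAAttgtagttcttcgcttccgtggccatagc
Bmi1: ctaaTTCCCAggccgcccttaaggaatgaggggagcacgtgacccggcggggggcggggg

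Among the PRC1 genes Bmi1 encodes the PCGF subunit known for self-renewal of blood stem cells and for silencing the Cdkn2a locus. Its brightest probe set, 1417493_at, lay at 11.42, 11.04 and 11.46 in WT and at 11.40, 11.41 and 11.47 in N1-IC. WT replicate 2 was the one low array, and the other 5 lay within 11.40 to 11.47. The difference was 0.12 ± 0.14 (SE, adjusted p of 0.803), and without WT replicate 2 it was -0.015. The second probe set, 1448733_at, was likewise lowest in WT replicate 2 at 9.74 against 10.15 to 10.57 elsewhere, and differed by 0.23 ± 0.22 (SE). WT replicate 2 is the array with high erythroid markers such as Klf1 and Ermap. Their part in these values was not tested beyond leaving that array out.

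Cbx8, the chromodomain gene whose protein binds AF9, had 1 probe set with separate groups. The probe set 1419199_at lay at 7.36, 7.68 and 7.53 in WT and at 7.26, 6.90 and 7.25 in N1-IC, so every N1-IC array was lower. The difference was -0.39 ± 0.15 (SE), with an interval of -0.74 to -0.032, an unadjusted p of 0.0370 and an adjusted p of 0.639. The brighter probe set 1419198_at did not repeat it. It lay at 8.23, 7.75 and 7.87 in WT and at 7.89, 7.98 and 7.75 in N1-IC, with overlapping groups and a difference of -0.074 ± 0.15 (SE, adjusted p of 0.893).

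Cbx7, the chromodomain gene that is the alternative to Cbx8 in stem cells, gave probe sets of opposite sign, both with separate groups. The probe set 1433557_at lay at 5.68, 5.68 and 5.65 in WT and at 5.96, 6.29 and 5.75 in N1-IC, a difference of 0.33 ± 0.15 (SE, adjusted p of 0.644). The probe set 1449713_at lay at 5.61, 6.13 and 5.45 in WT and at 5.28, 5.29 and 5.42 in N1-IC, a difference of -0.40 ± 0.19 (SE, adjusted p of 0.645). WT replicate 2 was the highest array there, and without it the difference was -0.20. The third, 1420039_s_at, was also highest in WT replicate 2 and differed by -0.11 ± 0.15 (SE). All 3 probe sets lay near the array medians, so no direction can be given for Cbx7.

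Rnf2 encodes RING1B, the main ubiquitin ligase of PRC1, and had 5 probe sets with differences of -0.063 to 0.14 and overlapping groups in each. The brightest, 1424873_at, lay at 11.61, 11.08 and 11.41 in WT and at 11.49, 11.16 and 11.26 in N1-IC, with WT arrays as both the highest and the lowest. The next, 1451519_at, lay at 10.77, 10.47 and 10.76 in WT and at 10.84, 10.68 and 10.75 in N1-IC, and its difference of 0.089 ± 0.12 (SE) was smaller than its error. The other 3 lay below the array median on every array. Ring1 encodes the alternative ligase RING1A and had a single probe set, 1422647_at, at 8.68, 8.30 and 8.42 in WT and at 8.16, 7.98 and 8.30 in N1-IC. WT replicate 2 and N1-IC replicate 3 were level, and the remaining N1-IC arrays were below all WT arrays. The difference was -0.32 ± 0.14 (SE), with an interval of -0.67 to 0.027 and an adjusted p of 0.644.

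**Figure D2:**
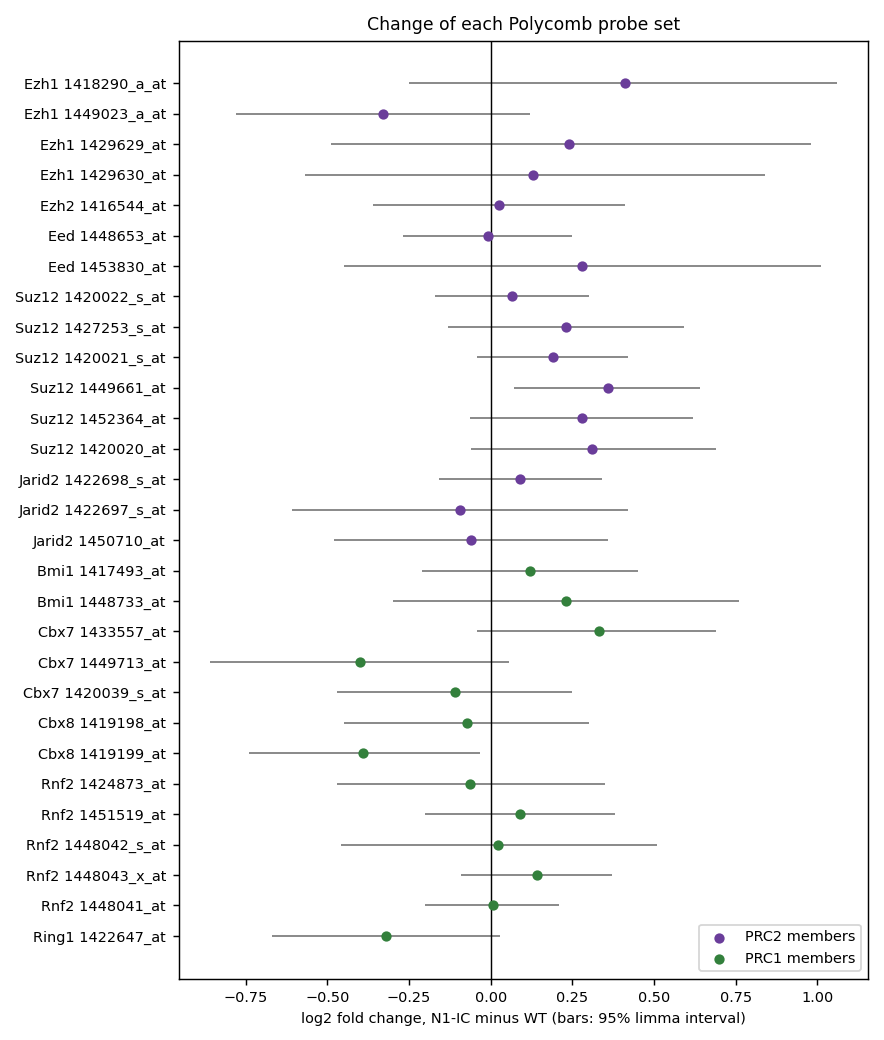
Log2 fold change of each Polycomb probe set (N1-IC minus WT, horizontal axis) with its 95% limma interval, PRC2 genes in purple and PRC1 genes in green. Intervals cover 0 for all but the probe sets 1449661_at of Suz12 and 1419199_at of Cbx8, and the adjusted p of both was 0.639.

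Genes that take the same place in a complex were then compared on the same array, as the log2 difference between their brightest probe sets. For Ezh2 minus Ezh1 the difference was 1.81, 2.05 and 2.37 in WT and 2.14, 1.43 and 1.52 in N1-IC, a shift of -0.38. N1-IC replicates 2 and 3 were below all WT arrays and replicate 1 was within them. For Rnf2 minus Ring1 it was 2.94, 2.78 and 2.98 in WT and 3.33, 3.18 and 2.96 in N1-IC, a shift of 0.26 with overlapping groups. For Cbx8 minus Cbx7 it was 2.55, 2.06 and 2.21 in WT and 1.93, 1.69 and 2.00 in N1-IC. All N1-IC arrays were lower, a shift of -0.40. The Cbx7 probe set used, 1433557_at, is the brightest over the 6 arrays only through its N1-IC signal. In WT its mean of 5.67 lay below the 5.73 of 1449713_at, which was lower in N1-IC (5.33). The Cbx8 minus Cbx7 shift thus rests on the choice of probe set and gives no direction for this pair. For Bmi1 minus Pcgf2, where Pcgf2 encodes the alternative PCGF protein MEL18, the shift was 0.51 with WT at 5.13 to 6.19 and N1-IC at 6.07 to 6.36. Exact two-sided permutation tests over the 6 arrays gave p values of 0.300, 0.200, 0.10 and 0.300, and 0.300 for each when adjusted over the 4 pairs. The smallest p that 3 arrays against 3 allow is 0.10, so this design could not pass 0.05. With the mean of all probe sets of a gene in place of the brightest the Ezh2 minus Ezh1 shift was -0.085, that of Cbx8 minus Cbx7 -0.17 and that of Bmi1 minus Pcgf2 0.27, while that of Rnf2 minus Ring1 was 0.36 (exact permutation p of 0.10). Without WT replicate 2 the Bmi1 minus Pcgf2 shift was 0.23. The Ezh2 minus Ezh1 shift was -0.60 without N1-IC replicate 1, -0.25 without N1-IC replicate 2 and -0.23 without WT replicate 3. The Cbx8 minus Cbx7 shift was -0.26 without WT replicate 1, and that of Rnf2 minus Ring1 was 0.17 without N1-IC replicate 1.

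**Figure D3:**
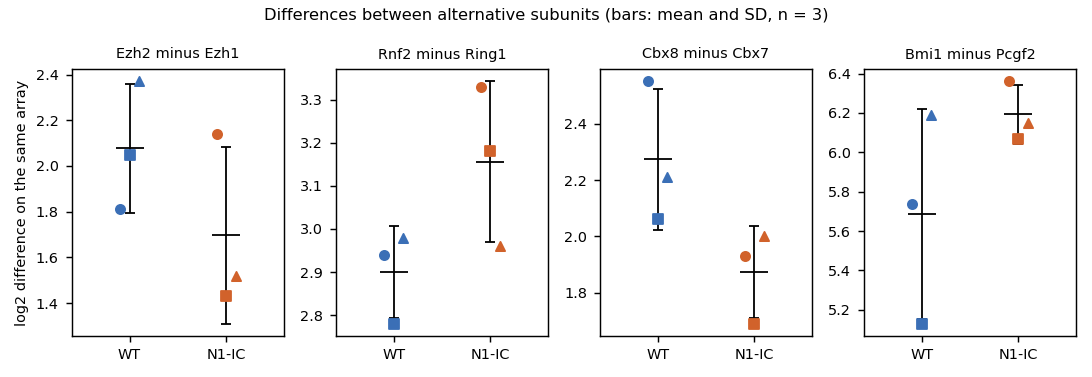
Log2 difference between the brightest probe sets of 2 alternative subunits on each array (vertical axis, a separate scale in each panel), WT in blue and N1-IC in orange, with the mean and SD of 3 arrays as bars. The groups are separate for Cbx8 minus Cbx7 and overlap for the other 3 pairs. The Cbx7 probe set shown, 1433557_at, is the brightest over the 6 arrays but not over the WT arrays.

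The other subunits of the complexes were taken from lists, each gene by its brightest probe set. By this measure 1 of 18193 genes of the array passed (0.00550%). It was the Y-linked gene Eif2s3y (limma adjusted p of 0.00198), lower in the N1-IC samples, which are labelled female. Of all genes 7.22% had an unadjusted p under 0.05 (3.77% higher and 3.46% lower). Separate groups were found for 14.8% (8.32% higher and 6.52% lower), and 52.6% had a higher mean in N1-IC. Of 9 other PRC2 subunits 0 passed at an adjusted p under 0.05 and 0 at an unadjusted one. Their median difference was 0.057, against 0.012 over all genes, and 8 of the 9 had a higher mean. Most of these were small: Rbbp4 and Rbbp7, which encode the histone-binding subunits, had 0.062 ± 0.092 and 0.057 ± 0.097 (SE). Mtf2, which encodes a Polycomb-like protein that guides PRC2 to CpG islands, had 0.29 ± 0.19, but 5 of its 6 probe sets had a lower mean. Lcorl had 0.24 ± 0.25 with all 6 probe sets higher, and Epop, which encodes an adaptor to elongin, had -0.53 ± 0.37 (SE). Lcorl was at 0.073 without WT replicate 2, and Epop at -0.17 without N1-IC replicate 2. Without WT replicate 2, 5 of the 9 had a higher mean.

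Of 16 other PRC1 subunits 0 passed the adjusted threshold and 3 (18.8%) had an unadjusted p under 0.05, where 7.22% of all genes did. Their median difference was -0.31, with 11 lower and 5 higher in N1-IC. The groups were separate for 4 (25.0%, against 14.8% of all genes). The mean of the 16 was 9.44, 9.43 and 9.40 log2 units in WT and 9.08, 9.15 and 9.36 in N1-IC, so N1-IC replicate 3 lay close to the WT arrays. Phc3, which encodes a polyhomeotic protein that lets PRC1 form clusters, lay at 10.14, 9.98 and 9.74 in WT and at 9.25, 9.29 and 9.57 in N1-IC. Every N1-IC array was lower, with a mean difference of -0.58 ± 0.15 (SE, adjusted p of 0.639). A second Phc3 probe set, at 2.74 to 4.34, had -0.66. Cbx6, another chromodomain gene, lay at 11.22, 11.32 and 11.15 in WT and at 9.93, 9.81 and 11.14 in N1-IC, so 2 N1-IC arrays were far below and replicate 3 was level with WT (-0.94 ± 0.35, SE, adjusted p of 0.639). On the higher side Yaf2, which encodes a subunit of variant PRC1, lay at 12.28, 12.14 and 12.46 in WT and at 12.66, 12.57 and 12.50 in N1-IC, a difference of 0.28 ± 0.12 (SE), and its other probe set had 0.40. Bcor, which encodes the corepressor of a variant PRC1, had 0.30 ± 0.12 (SE), and the gene lies on the X chromosome. Pcgf2 had -0.39 (adjusted p of 0.648), while a second probe set of it had 0.19.

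Enzymes that remove Polycomb marks gave 0 of 7 past the adjusted threshold. The one with the smallest p was Kdm6a, an X-linked demethylase gene that is known to escape X inactivation. In all 4 of its probe sets every N1-IC array lay above every WT array, with differences of 0.23 to 0.90. The probe set 1445198_at lay at 7.58, 7.75 and 7.81 in WT and at 8.69, 8.68 and 8.48 in N1-IC, which gave 0.90 ± 0.11 (SE) and an adjusted p of 0.373, the lowest among its probe sets. Uty, its Y-linked relative, lay at 7.32, 6.70 and 7.94 in WT and at 3.20, 3.08 and 2.73 in N1-IC (adjusted p of 0.0717). As N1-IC samples were female and WT samples male, the genotype and the sex cannot be told apart for this pair or for any other gene. All 10 Polycomb genes chosen by name lie on autosomes, which does not separate genotype from sex either. Kdm6b, the autosomal demethylase gene, had -0.076 ± 0.13 (SE). Asxl2 and Bap1, of the complex that removes ubiquitin from H2A, had 0.32 ± 0.15 and 0.21 ± 0.14 (SE), and the 5 probe sets of Asxl2 were split into 2 higher and 3 lower.

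Trithorax and MLL complex genes, whose products oppose Polycomb silencing, gave 0 of 8 past the adjusted threshold. At an unadjusted p under 0.05 there were 2 (25.0%), both lower, where 7.22% of all genes passed (3.46% lower). Men1, which encodes the menin cofactor that MLL fusions need, lay at 8.53, 8.79 and 8.54 in WT and at 8.04, 8.21 and 8.32 in N1-IC. Every N1-IC array was lower, with a mean difference of -0.43 ± 0.13 (SE, adjusted p of 0.639), and all 3 of its probe sets had a lower mean. Kmt2a, the gene that gives the fusion its MLL part, lay at 11.66, 11.37 and 10.93 in WT and at 10.87, 10.76 and 10.79 in N1-IC, with WT replicate 3 close to the N1-IC arrays (-0.51 ± 0.19, SE, adjusted p of 0.639). No source used here says whether its probe sets read the fusion transcript. Kmt2b and Psip1 had -0.29 ± 0.27 and -0.063 ± 0.090 (SE), and Kmt2b ranged from -0.062 without WT replicate 1 to -0.56 without WT replicate 2.

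Developmental regulators and cell cycle inhibitors that Polycomb is known to silence were at low signal. Of 20 measured genes 19 lay below the array median on every array and 0 passed the adjusted threshold. An unadjusted p under 0.05 was found for 1 (5.00%, against 7.22% of all genes). The mean of the list was 4.38 to 4.46 log2 units in WT and 4.43 to 4.49 in N1-IC, and the median difference was 0.072. Sox17, an endoderm factor gene, lay at 3.70, 3.81 and 3.86 in WT and at 4.07, 4.26 and 4.25 in N1-IC, a difference of 0.40 ± 0.10 (SE, adjusted p of 0.639). A second Sox17 probe set lay the opposite way, with WT arrays between 3.14 and 3.36 and N1-IC arrays between 2.49 and 2.81. The p15 gene Cdkn2b lay at 3.94, 4.22 and 4.19 in WT and at 3.90, 3.89 and 3.91 in N1-IC, a difference of -0.22 ± 0.11 (SE), and Nkx2-5 and Neurod1 had 0.27 and -0.24. No detection call was used here, and signal this low gives no reading of whether silencing was kept or lost.

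**Figure D4:**
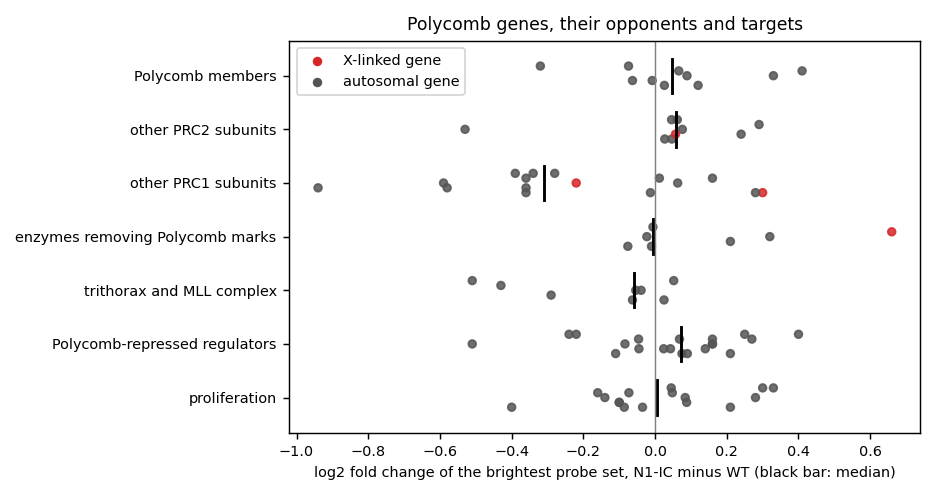
Log2 fold change (N1-IC minus WT, horizontal axis) of the brightest probe set of each gene in 7 lists (rows), with the list median as a black bar and X-linked genes in red. The median of the other PRC1 subunits is at -0.31, those of the remaining lists lie between -0.058 and 0.072, and Kdm6a, at 0.66, is the red point farthest to the right.

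Each probe set has 1 highest and 1 lowest array. WT replicate 1 was the highest or the lowest array for 13 of the 29 probe sets, WT replicate 2 and N1-IC replicate 2 for 12 each, N1-IC replicate 1 for 10, N1-IC replicate 3 for 7 and WT replicate 3 for 4. Over all probe sets of the array these arrays were extreme for 39.5%, 41.7%, 34.7%, 29.8%, 29.3% and 25.0%. The number of Polycomb probe sets at an unadjusted p under 0.05 was 0 without N1-IC replicate 2, 1 without WT replicate 1 or 2 and 4 without WT replicate 3 or N1-IC replicate 3. The share over all probe sets was then 5.36%, 5.76%, 6.09%, 12.0% and 7.27%. The median difference of the 29 was 0.039 without WT replicate 2 and 0.052 without N1-IC replicate 2.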

How the data were processed

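Per the labels' protocols, 5 ng of RNA per sample went into NuGEN Ovation amplification. The authors deposited linear intensities, 1 per probe set and array. RMA is named, without a version, in the submitters' processing notes. RMA by its usual definition equalises the distribution of signal between arrays, so differences are relative to other genes. The number of arrays limits the precision.

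Here log2 was taken with no offset, and 64 control probe sets were left out. Of the 45037 others 34945 had 1 gene symbol, 932 several and 9160 none in the platform annotation. N1-IC was compared with WT in R 4.3.3 with limma 3.58.1 (lmFit, eBayes), Benjamini-Hochberg adjusted over all 45037, and errors of differences are moderated standard errors. The fit was tested on simulated data. Beside the members, the text names up to 4 genes of smallest p per list of Polycomb, trithorax, target and proliferation genes, Pcgf2, Notch and sort genes. Rbbp7, Uty, Kdm5d, Xist, Eif2s3y, Mki67, Pcna and Mcm7 were added after their values were seen. The members and lists were chosen with earlier results of these data known. Alternatives were another prior, array weights, normalization, centring, an offset of 16, a filter at the median level, gene-level values, a replicate block, other thresholds and each array left out.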

Additional observations from a re-analysis of the deposited data

How the results depend on the processing

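No Polycomb probe set passed under any alternative run, and neither did any gene of the 5 lists of other Polycomb, opposing and target genes. The count over all probe sets was 7 with a mean-variance trend, 1 with the brightest probe set per gene, 2 with the replicate block, 10 at a threshold of 0.1 and 3 to 8 with 1 array left out (8 without WT replicate 2). Same-numbered arrays did not deviate together (correlations of deviations of 0.013, 0.040 and -0.077 for replicates 1, 2 and 3). These correlations cannot show whether same-numbered samples were prepared as pairs, so the replicate block was run as an alternative only. With that block 0 Polycomb probe sets had an unadjusted p under 0.05, and the paired shifts of the 4 pairs of alternative subunits had exact sign-flip p values of 0.25 to 0.50. The smallest p that this sign-flip test allows with 3 arrays per group is 0.25, so it could not pass 0.05. Some values turned sign. With further quantile normalization the log2 differences were 0.001 for 1448653_at of Eed, 0.007 for 1419198_at of Cbx8, -0.002 for 1448041_at of Rnf2 and 0.011 for Kit. With median centring Eed had 0.006, Kit 0.011 and Notch1 0.010, and with array weights 1448042_s_at of Rnf2 had -0.016. When all probe sets of a gene were averaged, Eed had 0.14, Jarid2 -0.022, Cbx7 -0.061, Rnf2 0.039, Mtf2 -0.085, Rbbp4 -0.034, Asxl2 -0.001, Sox17 -0.096 and Notch1 0.073. With 1 array left out the sign turned for some values, whose ranges are these. For Ezh1 1429629_at ran from -0.006 to 0.54 and 1429630_at from -0.16 to 0.44. Ezh2 ran from -0.11 to 0.13, Eed 1448653_at from -0.067 to 0.067, Jarid2 1422697_s_at from -0.22 to 0.086 and 1450710_at from -0.22 to 0.089. Bmi1 1417493_at ran from -0.015 to 0.19, Cbx7 1420039_s_at from -0.22 to 0.040 and Cbx8 1419198_at from -0.17 to 0.067. For Rnf2 1424873_at ran from -0.21 to 0.058, 1451519_at from -0.010 to 0.14, 1448042_s_at from -0.095 to 0.23 and 1448041_at from -0.015 to 0.027. Kdm6b ran from -0.16 to 0.007, Kit from -0.15 to 0.12 and Notch1 from -0.14 to 0.12. The values that turned when 1 array was left out were smaller than their standard errors in the full comparison. Those that turned on averaging include Cbx7, Mtf2, Asxl2 and Sox17, whose brightest probe sets had 0.33, 0.29, 0.32 and 0.40 and which each have at least 1 probe set of the opposite sign. The cause of the turns was not tested. The number of arrays, 3 per group, limits what could be detected.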
